A study of Mus musculus with 6 samples.

Results

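Genes of the motile cilium and of ependymal cells were followed in the arcuate nucleus (ARC) of control and *Esr1* mutant females. The genes were chosen by a rule on symbols, with earlier results of these data known. The rule took the axonemal dynein genes beginning *Dnah*, *Dnaic* or *Dnali*, the radial spoke head genes (*Rsph*), the tektins (*Tekt*), the sperm-associated *Spag* and *Spef* genes, and 15 single genes, *Foxj1*, *Rfx2*, *Rfx3*, *Ccdc39*, *Ccdc40*, *Ccdc153*, *Tmem212*, *Dynlrb2*, *Mia*, *Hydin*, *Ak7*, *Armc3*, *Armc4*, *Lrrc6* and *Wdr16*. It gave 53 of the 24015 gene symbols counted. Of these, 49 had a mean of 0.5 CPM (counts scaled to the depth of each library) or more and are called measured here. The 4 others, *Rsph6a*, *Spag11a*, *Spag11b* and *Tekt3*, had means between 0.0447 and 0.283 CPM, and the lowest measured gene, *Spag4*, had 1.20 CPM.

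RNA came from manually microdissected ARC of adult females aged 11 to 20 weeks, with 3 females per genotype. The labels give a mixed background of CD-1, 129P2 and C57BL/6, while the study's methods name CD-1 and 129P2 for this line. Controls carried 2 floxed *Esr1* alleles (*Esr1* fl/fl), so that both genotypes held the floxed gene for estrogen receptor alpha. Mutants carried in addition an Nkx2-1-Cre transgene (*Esr1* fl/fl;Nkx2-1-Cre), which acts from development onwards in cells of the medial basal hypothalamus and so is not limited to one ARC cell type. The labels do not say whether each library was 1 animal, and p-values measure only the spread between these libraries.

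Motile cilia are microtubule-based organelles that beat, in contrast to the immotile primary cilium found on most neurons and glia. In the brain they occur in tufts on ependymal cells, which line the ventricles and move cerebrospinal fluid. The ARC borders the third ventricle, where the ependymal wall gives way to tanycytes, so a dissected ARC can carry a strip of ventricular lining. The program is switched on by the transcription factors FOXJ1 and RFX2 and RFX3, and the RFX factors bind a DNA element known as the X-box, which is also found at genes of the primary cilium.

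The X-box was searched for in the promoters of these genes as GTNNCC, a spacer of 0 to 3 bases of any kind, then NGNAAC, on both strands. Promoters ran from 250 bases before to 50 bases after the start of each gene in RefSeq (GRCm38.p6) and were matched for 44 genes, 42 of them measured. No promoter was matched for *Armc4*, *Foxj1*, *Lrrc6*, *Rsph1*, *Rsph4a*, *Spag1*, *Spag11a* and *Spag11b*. *Spag6* was left out because its chromosome differed from that in NCBIM37. A gene with several starts was counted once, with a match where any of its promoters held one. An X-box was found in 15 of the 42 measured genes (35.7%), against 1606 of the 27025 genes of the table (5.94%). The forkhead motif GTAAACA, which does not overlap the X-box pattern, was found in 2 of the 42 (4.76%), against 1095 of all genes (4.05%). A match is a run of letters and not a bound site.

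Among the 15 genes, 12 held a match that began with GTTGC or ended with GCAAC, and 8 genes held a match within 120 bases before the start. The 5 windows that follow show how near the start and how nearly palindromic the element was in a regulator, in 3 dynein genes and in a central pair gene. Each is the 150 bases before the gene start, 5′ to 3′ on the strand of the gene, with the X-box in capitals.
*Hydin* (chr8:110266827-110266976, plus strand): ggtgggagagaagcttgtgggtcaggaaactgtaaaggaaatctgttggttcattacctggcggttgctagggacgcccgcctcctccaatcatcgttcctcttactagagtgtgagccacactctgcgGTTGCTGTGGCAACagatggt
*Dnaic2* (chr11:114727269-114727418, plus strand): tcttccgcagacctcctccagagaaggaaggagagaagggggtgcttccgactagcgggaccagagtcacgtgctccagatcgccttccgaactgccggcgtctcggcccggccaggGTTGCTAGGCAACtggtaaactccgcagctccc
*Dynlrb2* (chr8:116504865-116505014, plus strand): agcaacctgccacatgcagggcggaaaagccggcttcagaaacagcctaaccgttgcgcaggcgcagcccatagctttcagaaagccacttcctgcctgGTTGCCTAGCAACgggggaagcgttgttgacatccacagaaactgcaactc
*Dnah9* (chr11:66168552-66168701, minus strand): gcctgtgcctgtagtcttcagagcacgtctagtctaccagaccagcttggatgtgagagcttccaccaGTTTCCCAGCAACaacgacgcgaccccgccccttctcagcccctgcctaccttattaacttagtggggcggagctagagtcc
*Rfx2* (chr17:56831009-56831158, minus strand): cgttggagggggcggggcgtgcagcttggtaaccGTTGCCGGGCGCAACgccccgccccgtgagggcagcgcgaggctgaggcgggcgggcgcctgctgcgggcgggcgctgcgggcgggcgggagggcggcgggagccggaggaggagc

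The capitals began 21 bases before the start in *Hydin*, 33 in *Dnaic2*, 51 in *Dynlrb2*, 82 in *Dnah9* and 116 in *Rfx2*. Close variants stood elsewhere: GTTGCTGGGTAAC began 19 bases before the start of *Dnaic1*, and the same run, GTTGCTCGGCAAC, was found 29 bases before the start of *Tekt2* and 9 bases after that of *Rsph3b*. In *Spag16* the match was GTTGCCGTAGTAAC, 103 bases before the start. The remaining matches were in *Ccdc153*, *Dnah17*, *Spag5*, *Spag17*, *Spef2* and *Tekt4*, the last of which held 2.

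**Figure D1:**
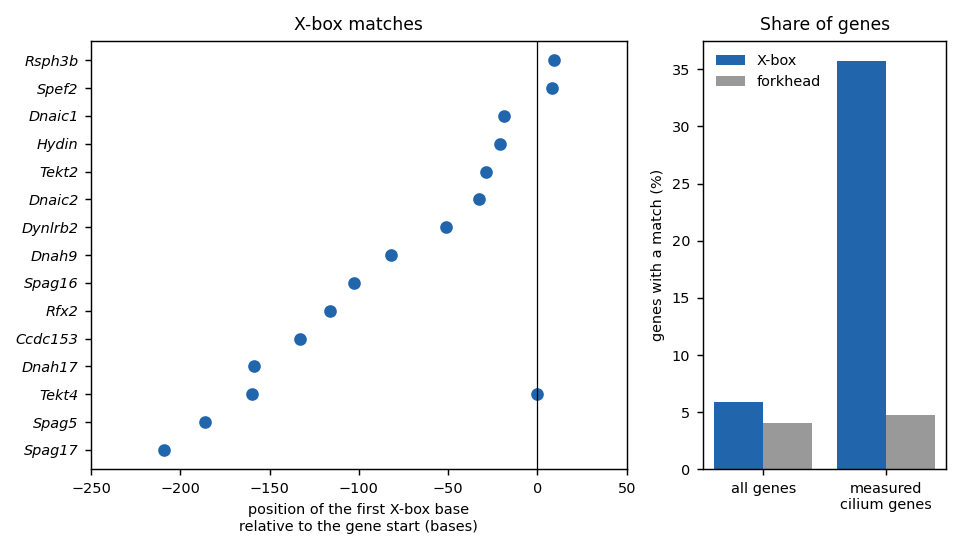
Left, position of each X-box match (first base of the motif, in bases from the gene start, negative before it) in the 15 genes with a match; *Tekt4* has 2 points. Right, percentage of genes with an X-box or a forkhead match among all 27025 genes of the promoter table and among the 42 measured cilium and ependymal genes: the X-box share is 5.94% against 35.7%, the forkhead share 4.05% against 4.76%.

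The libraries held between 11792440 and 17877137 counts on genes, and 3 counts corresponded to 0.175 to 0.248 CPM. *Esr1*, the targeted gene, was at 64.5, 57.5 and 48.5 CPM in controls and at 11.8, 9.55 and 7.06 CPM in mutants, as the labels state. The ARC neuron markers *Agrp* (26.3 to 40.0 CPM), *Cited1* (57.7 to 76.6 CPM) and *Pomc* (145 to 267 CPM) were present in every library. The list of 6 such markers summed to 322, 426 and 314 CPM in controls and to 524, 352 and 446 CPM in mutants. Of these 6, 4 had a positive and 2 a negative log2 fold change. *Tbx19*, with the smallest p, had 9.51, 6.57 and 5.67 CPM in controls and 5.03, 2.39 and 2.40 CPM in mutants (edgeR adjusted p = 0.291). The genotypes also differed in markers of a cell type other than the ones studied here. The 10 oligodendrocyte markers summed to 697 to 1317 CPM in controls and to 1716 to 1863 CPM in mutants. All 10 were higher in every mutant, against 7.88% of all tested genes. *Cldn11* alone passed the threshold of the edgeR test used below, and DESeq2 called 4 of the 10. The cause was not tested. In bulk tissue, a change in the number of cells of a type and a change in RNA per cell cannot be told apart.

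None of the 49 genes passed the test for genotype. In edgeR's quasi-likelihood test across 15236 genes, 18 genes (0.118% of those tested) had an adjusted p under 0.05, and 0 of them were cilium or ependymal genes. The smallest adjusted p among the 49 was 0.321, for *Rfx3*. DESeq2 called 191 of 15079 genes (1.27%) and limma voom 14 (0.0919%), again with 0 of the 49. Before adjustment, 4 of the 49 had p under 0.05 in edgeR (8.16%), all lower in mutants, against 8.85% of all genes in either direction and 4.01% lower in mutants. The counts were 3 in DESeq2 and 4 in limma voom, against 7.49% and 9.33% of all genes.

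Fold changes are given as mutant over control on the log2 scale. Over the 49 genes the median was -0.01, against 0.00355 for all tested genes, and the values ran from -0.55 (*Tekt2*) to 0.59 (*Rsph3b*). None lay beyond 0.6 in either direction, 39 were smaller than 0.3 in size, 27 were negative (55.1%, against 49.0% of all tested genes) and 22 positive. Standard errors were between 0.07 (*Dnah1*) and 0.81 (*Ccdc153*), with a median of 0.21 against 0.15 for all tested genes. The 95% interval stayed within a log2 difference of 0.6 on both sides for 22 genes and within 1 for 37. For 12 genes it reached a size of 1 or more on at least one side, so that a doubling, a halving or both lay within it. These were *Ak7*, *Armc4*, *Ccdc153*, *Hydin*, *Mia*, *Rsph3b*, *Spag4*, *Spag17*, *Tekt2*, *Tekt4*, *Tekt5* and *Tmem212*.

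**Figure D2:**
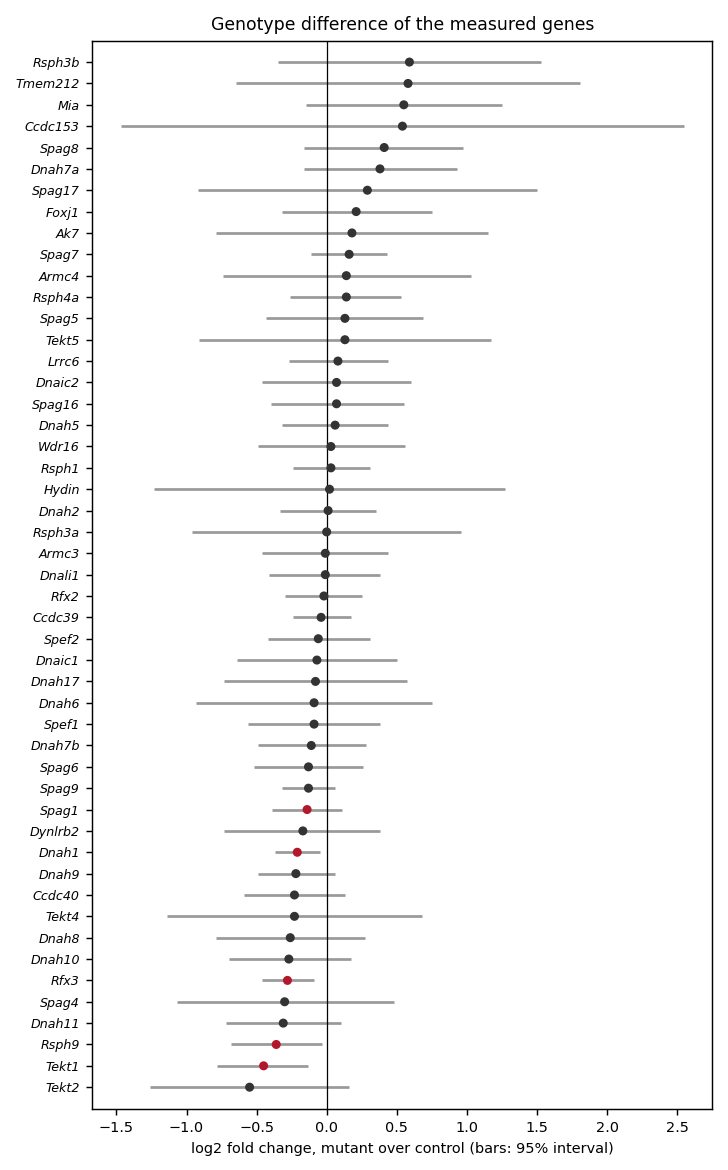
Log2 fold change, mutant over control, of each of the 49 measured genes, sorted by size; points are edgeR estimates and bars their 95% intervals (n = 3 per genotype). Red points mark the 5 genes whose mutant values all lay below all control values, and the points run from -0.55 (*Tekt2*) to 0.59 (*Rsph3b*), none with an adjusted p under 0.05.

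Per-library values are in CPM after TMM scaling, in the order of the replicate numbers. The regulators come first. *Foxj1* (chr11:116192018-116196713, minus strand, NCBIM37) encodes the forkhead factor that switches on the motile cilium program. It was at 6.90, 11.1 and 10.2 CPM in controls and at 7.59, 12.2 and 12.8 CPM in mutants. The genotypes overlapped, and the lowest library of each was replicate 1. The log2 fold change was 0.21 ± 0.24 (SE, n = 3 per genotype; edgeR adjusted p = 0.856).

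*Rfx3* (chr19:27836211-28085656, minus strand), which encodes an RFX factor used by both motile and primary cilia, was at a mean of 28.1 CPM per kilobase of exon, against 3.86 for *Foxj1* and 4.95 for *Rfx2*. Its levels in CPM were 327, 332 and 362 CPM in controls and 264, 278 and 300 CPM in mutants. Every mutant lay below every control, by a log2 fold change of -0.28 ± 0.08 (SE, n = 3 per genotype), which did not pass the test across all genes (edgeR adjusted p = 0.321, DESeq2 adjusted p = 0.137). *Rfx2* (chr17:56915320-56970431, minus strand), its close relative in multiciliated cells, gave 15.2, 16.8 and 18.2 CPM in controls and 16.2, 17.0 and 16.1 CPM in mutants. These values overlapped, with a log2 fold change of -0.02 ± 0.12 (SE; edgeR adjusted p = 0.978).

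The ependymal markers held the 2 least even genes of the set, *Ccdc153* and *Tmem212*. *Ccdc153* (chr9:44048760-44055389, plus strand) is a coiled-coil gene used as a marker of ependymal cells. Controls gave 0.536, 3.14 and 6.81 CPM and mutants 2.64, 5.21 and 7.19 CPM, from 8 to 108 counts per library. Controls were spread 12.7-fold and mutants 2.72-fold, and the genotypes overlapped. The log2 fold change of 0.54 ± 0.81 (SE) carried a 95% interval from -1.47 to 2.55, which leaves the direction undetermined (edgeR adjusted p = 0.902).

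*Tmem212* (chr3:27764988-27795290, minus strand), a membrane protein gene of ciliated cells, had 0.938, 4.19 and 3.01 CPM in controls and 1.98, 4.71 and 5.46 CPM in mutants. Replicate 1 was again the lowest of each genotype, and the log2 fold change was 0.58 ± 0.53 (SE; edgeR adjusted p = 0.817). *Mia* (chr7:27953449-27966176, minus strand), a small secreted protein gene also found in ependyma, did not follow that order. Its controls were at 7.77, 3.49 and 7.82 CPM and its mutants at 7.76, 8.23 and 11.7 CPM. Control replicate 2 stood lowest, and mutant replicate 1 lay within the range of the controls. The log2 fold change was 0.55 ± 0.31 (SE; edgeR adjusted p = 0.657), and exons of *Mia* overlap those of *Rab4b* on the same strand. *Armc3* (chr2:19120745-19231868, plus strand), an armadillo repeat gene of ciliated cells, was even between genotypes, with 6.16, 8.26 and 9.18 CPM in controls and 6.60, 7.66 and 9.06 CPM in mutants (log2 fold change -0.01 ± 0.20, SE).

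The 10 markers of an ependymal list, 5 of them members here and with *Rarres2*, *Enkur*, *S100b*, *Cd24a* and *Vim* added, summed to 322, 347 and 376 CPM in controls and to 404, 445 and 505 CPM in mutants. The groups did not overlap, and *Cd24a* and *Vim*, which other cells express as well, made up most of the sum. *Cd24a* was at 101, 95.3 and 119 CPM in controls and at 157, 162 and 195 CPM in mutants, which is 0.71 ± 0.11 as a log2 fold change (SE; edgeR adjusted p = 0.0567). DESeq2 called *Cd24a* (adjusted p = 1.70e-05), which edgeR did not. *Vim* had 130, 120 and 126 CPM in controls and 144, 152 and 147 CPM in mutants, and its log2 fold change was 0.24 ± 0.07 (SE; edgeR adjusted p = 0.352). Of the 10, 0 passed edgeR's test and 1 passed DESeq2's, 9 had positive and 1 a negative log2 fold change, and the median was 0.29.

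Dynein arms are the motors that slide the outer doublet microtubules past each other. All 15 dynein genes were measured, and their median log2 fold change was -0.09, with 4 positive and 11 negative values between -0.31 and 0.38. *Dnah1* (chr14:32073561-32137082, minus strand), an inner arm heavy chain, was the most even gene of the 49 within a genotype. It stood at 162, 164 and 171 CPM in controls and at 144, 139 and 146 CPM in mutants. The genotypes did not overlap, with a log2 fold change of -0.21 ± 0.07 (SE, n = 3 per genotype; edgeR adjusted p = 0.405).

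*Dnah6* (chr6:72967600-73171645, minus strand), a second inner arm heavy chain, varied more between libraries of the same genotype. Levels were 39.3, 68.7 and 81.0 CPM in controls and 41.2, 62.6 and 73.3 CPM in mutants. Replicate 1 was the lowest library of both genotypes, well below the others, while the log2 fold change was -0.09 ± 0.33 (SE; edgeR adjusted p = 0.972). *Dnah11* (chr12:119116455-119437516, minus strand), an outer arm heavy chain, had 26.1, 31.8 and 44.9 CPM in controls and 25.3, 28.3 and 29.2 CPM in mutants. Only controls 2 and 3 exceeded all mutants, and the log2 fold change was -0.31 ± 0.18 (SE; edgeR adjusted p = 0.673).

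*Dynlrb2* (chr8:119028915-119039796, plus strand), a dynein light chain gene that marks multiciliated cells, gave 5.63, 7.15 and 8.11 CPM in controls and 4.04, 7.23 and 7.13 CPM in mutants. The values overlapped, and the log2 fold change was -0.17 ± 0.25 (SE; edgeR adjusted p = 0.891). The outer arm heavy chains *Dnah9* and *Dnah5* averaged 41.8 and 30.8 CPM over the 6 libraries, and *Dnah17*, the lowest per kilobase, averaged 2.72 CPM. *Dnah7a* and *Dnah7b* are near-identical copies, so the split of reads between them is uncertain.

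Docking and assembly factors place the arms on the doublets or fold them in the cytoplasm beforehand. *Spag1* (chr15:36109123-36165365, plus strand), a cytoplasmic assembly factor, was at 21.2, 20.01 and 22.4 CPM in controls and at 18.1, 19.7 and 19.7 CPM in mutants. All mutants were below all controls, by a narrow gap between mutants 2 and 3 and control 2, and the log2 fold change was -0.14 ± 0.11 (SE; edgeR adjusted p = 0.770). *Lrrc6* (chr15:66211420-66332472, minus strand), another assembly factor, had 15.7, 18.2 and 23.8 CPM in controls and 19.8, 18.8 and 22.4 CPM in mutants (log2 fold change 0.08 ± 0.16, SE). *Armc4*, part of the outer arm docking complex, ranged from 1.94 to 6.03 CPM.

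Radial spokes and the central pair pass the signals that order the beat. Of 13 such genes 12 were measured, with a median log2 fold change of 0.03. *Rsph4a* (chr10:33624917-33635827, plus strand), a spoke head gene of ependyma and airway, was at 49.0, 68.6 and 67.3 CPM in controls and at 52.7, 72.9 and 77.5 CPM in mutants. Replicate 1 was the lowest in both genotypes, and the log2 fold change was 0.14 ± 0.17 (SE; edgeR adjusted p = 0.872). *Rsph9* (chr17:46258984-46281165, minus strand), another spoke head gene, separated the genotypes, with 11.1, 12.4 and 11.2 CPM in controls and 8.25, 9.24 and 9.66 CPM in mutants. Its log2 fold change of -0.36 ± 0.15 (SE) did not pass the test (edgeR adjusted p = 0.510).

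*Hydin* (chr8:112790877-113134153, plus strand), a very large central pair protein whose loss gives hydrocephalus in mice, had a wide range between libraries. It gave 22.4, 41.6 and 67.4 CPM in controls and 28.2, 46.9 and 57.6 CPM in mutants, from 334 to 939 counts. The libraries of each genotype were spread 3.01-fold in controls and 2.04-fold in mutants around nearly equal means, 43.8 ± 22.6 and 44.2 ± 14.9 CPM (SD, n = 3). The log2 fold change was 0.02 ± 0.48 (SE; edgeR adjusted p = 0.996). *Rsph3b* (chr17:7109030-7153070, minus strand) carried the highest log2 fold change of the 49, 0.59 ± 0.42 (SE; edgeR adjusted p = 0.751), on 16 to 50 counts. It had 1.07, 1.80 and 1.36 CPM in controls and 1.90, 1.19 and 3.33 CPM in mutants, the genotypes overlapped, and reads could be shared with the near-identical *Rsph3a*.

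CCDC39 and CCDC40 form the molecular ruler that spaces spokes and inner arms along the doublet. *Ccdc39* (chr3:33711284-33743232, minus strand) was at 62.9, 58.3 and 69.9 CPM in controls and at 60.9, 60.5 and 64.6 CPM in mutants, with the genotypes overlapping. *Ccdc40* (chr11:119089886-119126550, plus strand) gave 25.7, 29.3 and 36.6 CPM in controls and 21.0, 28.1 and 28.9 CPM in mutants, which overlapped too. Their log2 fold changes were -0.04 ± 0.09 and -0.23 ± 0.16 (SE; edgeR adjusted p = 0.944 and 0.747). Exons of *Ccdc39* overlap those of *Ttc14* on the other strand, and the sources used here do not say whether reads were counted by strand.

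Tektins are filament proteins inside the doublet microtubules. *Tekt1* (chr11:72158224-72175944, minus strand) had 12.9, 14.0 and 13.8 CPM in controls and 9.74, 8.80 and 11.3 CPM in mutants. The genotypes did not overlap, and the log2 fold change was -0.45 ± 0.15 (SE, n = 3 per genotype; edgeR adjusted p = 0.372). *Tekt2* (chr4:125999365-126002932, minus strand) carried the lowest log2 fold change of the set, -0.55 ± 0.32 (SE; edgeR adjusted p = 0.663), from 5.03, 3.26 and 6.96 CPM in controls and 2.48, 4.46 and 3.33 CPM in mutants, which overlapped. *Wdr16* (chr11:67738308-67779153, minus strand), a protein of the doublet lumen, gave 5.83, 9.89 and 10.4 CPM in controls and 7.18, 9.17 and 10.3 CPM in mutants (log2 fold change 0.03 ± 0.24, SE).

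The *Spag* family is named for sperm and not for cilia, and 4 measured members are not axonemal. *Spag9* (chr11:93857405-93987399, plus strand), a scaffold of kinase signalling and motor transport, had the highest level per kilobase of exon of the 49, with 551, 629 and 565 CPM in controls and 507, 520 and 569 CPM in mutants. *Spag7* (chr11:70477273-70482918, minus strand), which has a nucleic acid binding domain, had 42.8, 36.1 and 41.1 CPM in controls and 46.5, 49.5 and 38.0 CPM in mutants. Their log2 fold changes were -0.13 ± 0.09 and 0.16 ± 0.12 (SE; edgeR adjusted p = 0.724 and 0.758). *Spag5*, a mitotic spindle gene, and *Spag4*, a nuclear envelope gene, averaged 4.78 and 1.20 CPM.

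Genotypes that did not overlap were thus found in 5 of the 49 genes, *Dnah1*, *Rfx3*, *Rsph9*, *Spag1* and *Tekt1*, all lower in mutants (10.2%, against 7.88% of all tested genes). None was higher in every mutant (0 of 49, against 7.88%). Without the 4 non-axonemal *Spag* genes, the other 45 summed to 1071, 1227 and 1409 CPM in controls and to 1010, 1147 and 1257 CPM in mutants. These sums overlapped, with a ratio of mutant to control means of 0.921, and *Rfx3* and *Dnah1* alone accounted for a large part of each.

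**Figure D3:**
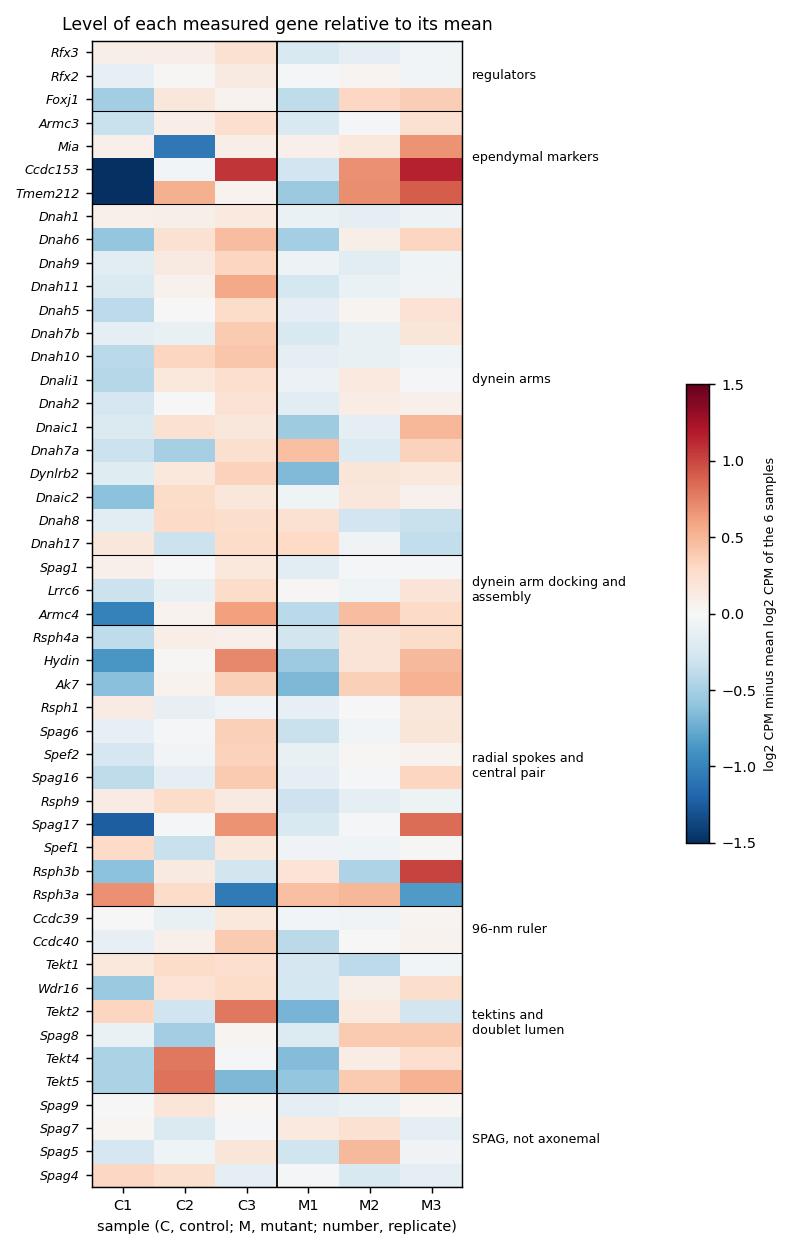
Level of each measured gene in each library (C, control; M, mutant; 1 to 3, replicate), as log2 CPM minus the mean over the 6 libraries, in rows grouped by role; the colours saturate for *Ccdc153* and *Tmem212* in control replicate 1. The columns of replicate 1 are the bluest in both genotypes, with the lowest value of the genotype in 36 of 49 genes for controls and 35 of 49 for mutants.

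Libraries of one genotype differed more in the median gene of this set than in the median of all genes, without matching for level. Within a genotype the SD of log2 CPM had a median of 0.29 over the 49 genes, against 0.18 over 15199 genes with counts in every library, and 14 genes spanned more than 2-fold over the 6 libraries. Counting adds to the SD of genes at low level: alone it would give 0.35 for *Spag4* (mean 1.20 CPM) and 0.37 for *Rsph3a* (1.33 CPM). The most variable were *Ccdc153* (SD 1.43, 13.4-fold over all libraries) and *Tmem212* (SD 0.98, 5.82-fold). Counting alone would give an SD of 0.27 for *Ccdc153*, and only 0.06 for *Hydin*, whose SD was 0.68. *Spag17*, a central pair gene, and *Ak7*, an adenylate kinase of the cilium, had SDs of 0.79 and 0.58. At the other end stood *Dnah1* (0.04), *Spag1* (0.08), *Rfx3* (0.09), and *Rfx2*, *Ccdc39* and *Spag9* (0.10 each), where counting alone would give 0.02 to 0.09.

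**Figure D4:**
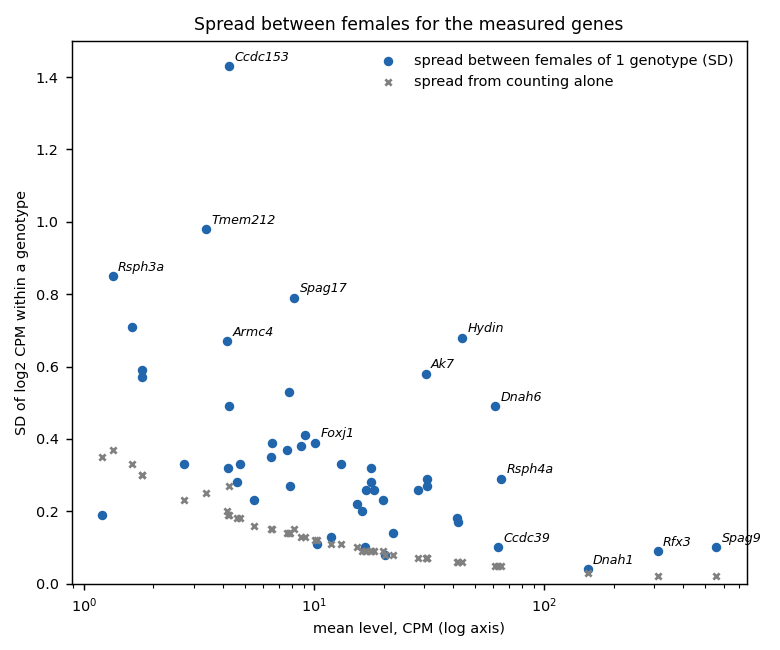
Spread between libraries of 1 genotype (SD of log2 CPM, blue points, labelled as females) and the spread expected from counting alone (grey crosses) against mean level (CPM, log axis) for the 49 measured genes. *Ccdc153* reaches 1.43, and *Hydin* (0.68) and *Dnah6* (0.49) lie far above their counting spread of 0.06 and 0.05, while *Dnah1* (0.04) and *Ccdc39* (0.10) lie near theirs.

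The spread had a shared direction. Replicate 1 was the lowest control for 36 of the 49 genes and the lowest mutant for 35, and it was the lowest of both genotypes for 29 (59.2%, against 17.8% of all tested genes). It was the highest of both for *Spag4* alone (2.04%, against 16.1%). At the other end, replicate 3 was the highest control for 32 of the 49 genes and the highest mutant for 33. Replicates 1 to 3 stood in the same order in both genotypes for 18 genes (36.7%, against 21.2% of all tested genes). Genes measured in one library are not independent of each other, and these comparisons were not tested. Replicate 1 stood below 0.75 of the mean of the other libraries in both genotypes for 13 genes: *Ak7*, *Armc4*, *Ccdc153*, *Dnah6*, *Dynlrb2*, *Foxj1*, *Hydin*, *Rsph4a*, *Spag17*, *Tekt4*, *Tekt5*, *Tmem212* and *Wdr16*. The ratio was 0.411 in controls and 0.540 in mutants for *Hydin*, 0.525 and 0.606 for *Dnah6*, and 0.648 and 0.608 for *Foxj1*. It was near 1 for *Rfx3* (0.943 and 0.914), *Ccdc39* (0.982 and 0.974) and *Dnah1* (0.968 and 1.01).

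**Figure D5:**
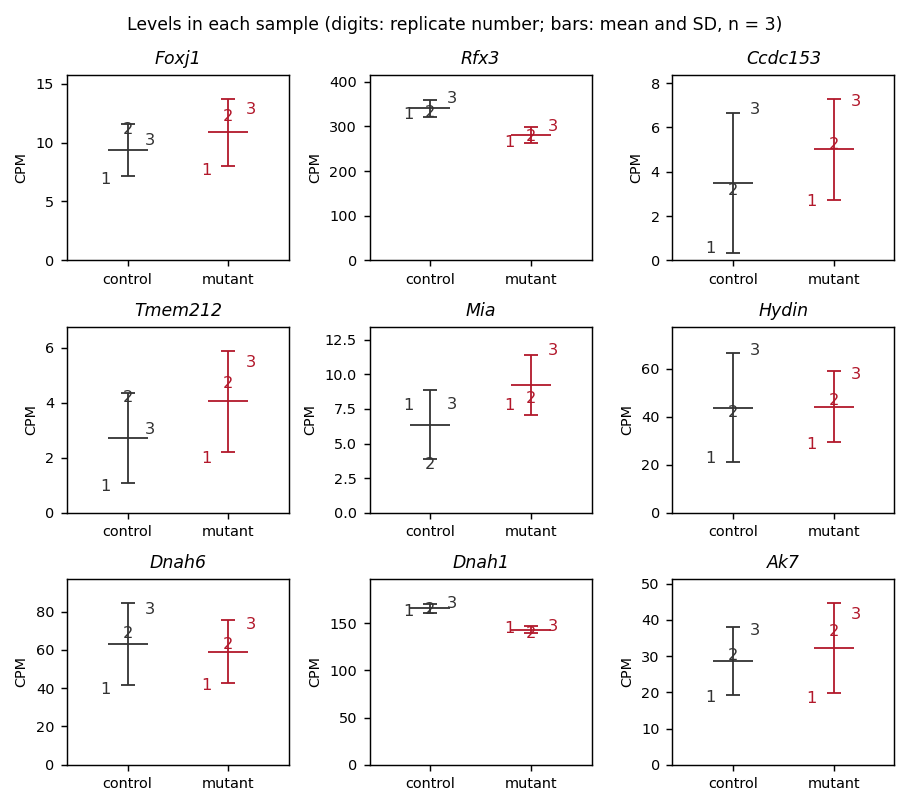
CPM of 9 genes in each library, each digit placed at the value of the replicate with that number; bars are the mean and SD of 3 libraries per genotype. In *Foxj1*, *Ccdc153*, *Tmem212*, *Hydin*, *Dnah6* and *Ak7* the digit 1 is lowest in both genotypes, while *Rfx3* and *Dnah1* are tight and do not overlap between genotypes.

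Other markers also set these libraries apart. Those of the adjoining ventromedial nucleus (*Nr5a1*, *Fezf1*, *Sox14* and *Cbln1*) summed to 22.3, 95.8 and 71.2 CPM in controls and to 35.0, 149 and 162 CPM in mutants. Replicate 1 was the lowest of each genotype here too, for 3 of the 4 genes as well as the sum, and none was at 0 (*Fezf1* was at 1.14 CPM in control replicate 1). *Cbln1*, whose absence the study used as a check of its dissections, ran from 11.7 CPM in control replicate 1 to 77.7 CPM in mutant replicate 3. Between genotypes all 4 markers had a positive log2 fold change (median 0.90), with 0 past edgeR's test or DESeq2's. The 10 tanycyte markers, among them *Rax* and *Dio2*, ran the other way across replicates, with 2471, 1157 and 1648 CPM in controls and 2958, 2382 and 2448 CPM in mutants. Of these, 7 were highest in replicate 1 of both genotypes. Their log2 fold changes were positive for 8 and negative for 2 (median 0.40). None passed edgeR's test, and DESeq2 called *Dio2* (adjusted p = 0.000417). The 10 choroid plexus markers followed neither order, with 297, 92.1 and 350 CPM in controls and 169, 496 and 124 CPM in mutants. *Ttr*, the transthyretin gene and the best known of them, went from 16.8 to 391 CPM. The part of these tissues in the levels of the cilium genes was not tested. With both replicates numbered 1 left out, an alternative added after the values were seen, 0 of the 49 genes passed edgeR's test, where 21 of 15288 genes did (0.137%), and 7 had p under 0.05 before adjustment, against 9.14% of all genes in either direction. All 7 were lower in mutants (14.3%, against 3.81% of all genes): *Dnah1*, *Dnah8*, *Dnah9*, *Dnah10*, *Dnah11*, *Rfx3* and *Tekt1*.

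Other genes of motile and primary cilia also held none past the test. Of 123 further motile axoneme genes listed, 83 were in the counts and 82 were tested. None of the 82 passed edgeR's test or DESeq2's, and the median log2 fold change was -0.06. Of the 82, 7 were lower in every mutant and 0 higher in every mutant, against 7.88% of all tested genes in each direction. Before adjustment 2 of the 82 had p under 0.05 in edgeR, against 8.85% of all tested genes in either direction. The 2 were *Ccdc114*, of the outer arm docking complex (9.25, 8.32 and 10.1 CPM in controls, 7.51, 6.09 and 5.86 CPM in mutants; edgeR adjusted p = 0.401), and *Mak*, a kinase of cilia (12.6, 14.1 and 18.3 CPM in controls, 8.75, 10.9 and 12.3 CPM in mutants; edgeR adjusted p = 0.468). Of 24 regulators of multiciliated cells 16 were tested, with a median of 0.06 and 0 past the test. Intraflagellar transport, which builds motile and primary cilia alike, had 32 genes tested, 0 past the test and a median of 0.04. For 30 genes of primary and neuronal cilia the median was -0.05, also with 0 past the test. DESeq2 called 0 genes of these lists as well. In these last 3 lists 1 of 16, 2 of 32 and 1 of 30 genes had p under 0.05 before adjustment in edgeR, against the same 8.85% of all genes. The 2 genes with the smallest p were *Plk4* (log2 fold change 0.48 ± 0.18, SE) and *Foxj3* (-0.18 ± 0.08) among the regulators, *Ift43* (0.43 ± 0.17) and *Ift74* (0.34 ± 0.14) in transport, and *Mchr1* (0.43 ± 0.18) and *Ahi1* (-0.20 ± 0.10) among neuronal cilium genes.

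Levels per length allow genes to be set side by side. Mean CPM per kilobase of annotated exon (GENCODE, NCBIM37) was highest for *Spag9* (49.7), *Spag7* (28.6) and *Rfx3* (28.1), followed by the spoke head genes *Rsph1* (18.8) and *Rsph4a* (17.7) and by *Dynlrb2* (13.2). *Foxj1* was at 3.86 and *Ccdc153* at 3.92 CPM per kilobase. The lowest were *Dnah17* (0.165), *Spag4* (0.247) and *Dnah8* (0.314). *Dnah7a* was left out of this order because its annotated exons cover only 612 bases. Of the 53 genes, 12 lie on chromosome 11 (22.6%), which holds 1627 of the 20763 counted genes with a position (7.84%).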

How the data were processed

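RNA from microdissected ARC of 3 control and 3 mutant females was amplified by the authors and sequenced as single-end reads of 50 bases. Per the labels, reads were mapped with TopHat2 2.1.0 to mm9 and counted on genes with HTSeq 0.6, and the study's methods name the build NCBI37/mm10. The deposited files hold raw counts, 1 value per gene symbol and sample, without normalization. Whether counting used strand is not given in the sources used here.

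Each label gave its sample a genotype and a replicate number. Genes were tested with edgeR 4.0.16 (quasi-likelihood test, robust dispersions, TMM normalization, default filter on low counts) in R 4.3.3, fitted on 15236 genes with Benjamini-Hochberg adjustment over all of them and a threshold of 0.05. DESeq2 1.42.0 and limma voom (3.58.1) were alternatives, beside RLE normalization, other filters, a replicate block and each sample left out in turn. Levels are CPM after TMM scaling. Standard errors are approximate: the size of the log2 fold change over the square root of the F statistic of the edgeR test. The 95% intervals were built from these errors and a t distribution. Between samples of 1 genotype, chi-square over its degrees of freedom was 6.91 to 21.5, more than sampling noise gives, and the floor of 3 counts covers counting error only.

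The genes and lists were chosen with earlier results of these data known. Values in every sample are given for the 3 regulators, 4 ependymal markers, the 4 highest and 4 lowest log2 fold changes among measured genes and the 2 most abundant genes of each role, and for *Esr1*. The rule also names the 2 genes of each list with the smallest p. They are given here by their values per sample or their log2 fold change for the ependymal and cilium lists. Lists on other cell types are given mainly by their sums. *Agrp*, *Cited1*, *Fezf1* and *Ttr* were named after their values were seen. The scripts were tested on simulated data. Gene positions are those of GENCODE on NCBIM37 by symbol, 12 of 53 through an older symbol, and promoters those of RefSeq on GRCm38.p6.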

Additional observations from a re-analysis of the deposited data

How the results depend on the processing

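None of the 49 measured genes passed the threshold under RLE normalization, DESeq2, limma voom, both other filters, the replicate block, any sample left out or both replicates numbered 1 left out, although 2 genes were removed by the filter of 10 counts in every sample. The smallest adjusted p among them was between 0.120 (replicate block) and 0.752 (edgeR without mutant replicate 2). The count of genes called over the whole table moved from 18 to 191 with DESeq2, 106 with a minimum of 1 count in any sample, 123 with the replicate block, and 7 to 46 with 1 sample left out (46 without control replicate 2, 9 without mutant replicate 2 and 7 without mutant replicate 3). Under the block 7 of the 49 (14.3%) had p under 0.05 before adjustment, 5 lower and 2 higher (*Mia* and *Tmem212*), against 1834 of the 15236 genes tested. Of the genes in the lists, *Cd24a* passed the threshold there (edgeR block adjusted p = 0.00297). So did *Dio2* (0.0108), *Cbln1* (0.0435), *Tbx19* (0.0440) and 3 oligodendrocyte markers. The replicate numbers were not treated as pairing the samples: deviations from the genotype means correlated across genes at 0.31, 0.05 and 0.02 for samples of the same number, and control replicate 2 correlated best with mutant replicate 3 (0.22). Genes whose genotypes did not overlap numbered 5 (10.2%, against 15.8% of all tested genes in either direction), 19 without both replicates numbered 1 (38.8%, against 40.7%), and 7 to 12 with 1 sample left out (14.3% to 24.5%, against 22.5% to 27.7%; 12 without control replicate 1, 12 without mutant replicate 1, 8 without control replicate 3), as fewer samples overlap less often. The sign of the log2 fold change was kept by 46 of the 49 genes in limma voom, 47 under the block, 40 without both replicates numbered 1 and 35 to 44 with 1 sample left out. Among the genes given in full it turned in limma voom for *Armc3* (0.0039) and without both replicates numbered 1 for *Hydin* (-0.06), *Lrrc6* (-0.02) and *Wdr16* (-0.06), and the cause was not tested. With 1 sample left out, log2 fold changes ranged between 0.03 and 1.43 for *Ccdc153*, 0.11 and 0.89 for *Rsph3b*, 0.18 and 1.06 for *Tmem212*, 0.25 and 0.72 for *Mia*, -0.79 and -0.26 for *Tekt2*, -0.47 and -0.07 for *Dnah11*, -0.16 and 0.11 for *Armc3*, -0.10 and 0.03 for *Ccdc39*, -0.34 and 0.13 for *Dnah6*, -0.31 and 0.04 for *Dynlrb2*, -0.29 and 0.47 for *Hydin*, -0.04 and 0.26 for *Lrrc6*, -0.09 and 0.04 for *Rfx2*, -0.0039 and 0.29 for *Rsph4a* and -0.19 and 0.18 for *Wdr16*. The median log2 fold change of the 49 ranged from -0.16 to 0.09 and the summed ratio from 0.863 to 0.990. Depth limits the genes near 1 CPM, where 3 counts are a large share of the value. In *Ccdc153* and *Hydin* the SD between libraries of 1 genotype (1.43 and 0.68) was above that from counting alone (0.27 and 0.06). The source of that spread was not tested.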
